A study of Mus musculus with 6 samples.

Results

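The guidance genes examined here were the Eph receptors Epha1, Epha2 and Ephb1, the ephrins Efna2 and Efna5, the semaphorin Sema3c and the plexin Plxna1. They were taken by gene name from the deposited tables of differentially expressed genes, and made up 7 of the 651 genes listed there. MECs (mammary epithelial cells) from WT.GFP+ mice and from ERα−/−.GFP+ mice, which lack the oestrogen receptor α in every cell from the germ line, were placed in the milk ducts of opposite glands of the same NSG mice, an immunodeficient strain. Donors were on a C57Bl6 background and carried EGFP under an actin promoter, which is active in many cell types, and the ages of donors and hosts are not given in the sources used here. The hosts were then pregnant, GFP+ cells were sorted by FACS, with GFP the only gate named for the sequenced cells, and RNA was sequenced from 3 samples of each genotype. The flow cytometry methods state that glands were pooled for cell suspensions, so a sample need not be a single animal. The question was which genes differ between engrafted cells with and without ERα.

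Eph receptors are receptor tyrosine kinases, and their ligands, the ephrins, are held in the membrane of the neighbouring cell, so that the pair signals where cells touch and helps to sort and position them. Class A ephrins are tethered by a lipid anchor and bind mainly EphA receptors, whereas class B ephrins span the membrane and bind mainly EphB receptors. Class 3 semaphorins are secreted and act through receptor complexes of plexins and neuropilins, best known from the steering of axons. In the mammary gland, Eph and ephrin signalling has been tied to branching and to the order of the epithelial layers.

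All values are means over the samples of a genotype. Values per sample were not used here, so their spread cannot be given, and no test was run. The error given with a fold change is the 95% interval from the number of reads. It covers counting error only and does not include the spread between animals or samples. The groups are named only as selections in the tables, and the genotype of each selection was set by the direction stated in the paper, so that "lower" below rests on that statement. The targeted gene, Esr1, was not among the listed genes and could not check it. The deposited means correspond to depths of about 27190483 reads per WT.GFP+ sample and 29326709 per ERα−/−.GFP+ sample.

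All 7 guidance genes were lower in ERα−/−.GFP+ than in WT.GFP+ MECs, as were 86.9% of the 651 listed genes. Entry into the tables already required a change past the authors' thresholds, so the shared direction is not a result about these genes in particular. The fold changes ran from 2.44 for Plxna1 to 5.21 for Ephb1, with a median of 3.07, where the median over the 566 lower genes was 3.33. Of the 7 genes, 5 were lower by more than 3-fold (Ephb1, Sema3c, Efna5, Efna2 and Epha1), against 356 of the 566 lower genes, or 54.7% of all listed genes. Ephb1 was lower by more than 4-fold, as were 158 of the 566 lower genes, or 24.3% of all listed genes, and 13.8% of the 557 genes whose mean count reached 10 in both genotypes. Ranked from the most lowered gene, Ephb1 stood at position 88, Sema3c at 240, Efna5 at 291, Efna2 at 338, Epha1 at 351, Epha2 at 432 and Plxna1 at 506. Among those 557 genes, which leave out the genes with few reads, Ephb1 stood at 18, Sema3c at 154 and Plxna1 at 419. The guidance genes therefore spread over most of the range of the lower genes.

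**Figure D1:**
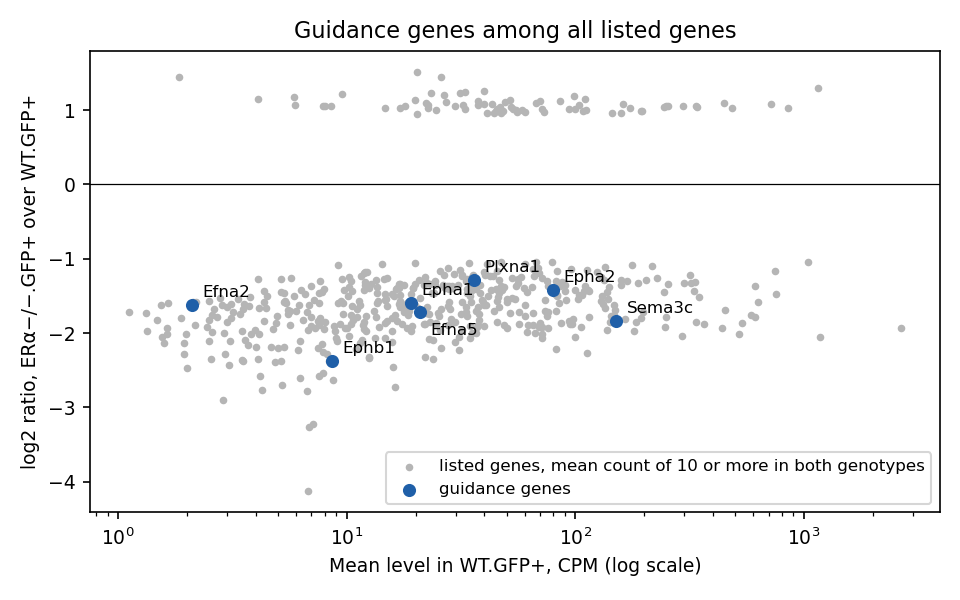
The log2 ratio of ERα−/−.GFP+ over WT.GFP+ (vertical axis) against the mean level in WT.GFP+ in CPM, counts scaled to the depth of the library (horizontal axis, log scale), for the 557 listed genes whose mean count reached 10 in both genotypes. Guidance genes are the blue points, all below 0, and Ephb1 lies lowest of them at −2.38.

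Of the receptors, Epha2, which binds class A ephrins and had the most reads of the listed Eph receptors, averaged 2163 reads per WT.GFP+ sample and 873 per ERα−/−.GFP+ sample. It was 2.67-fold lower (95% interval 2.55 to 2.80), and 37.4% of its WT.GFP+ level was left. Epha1, another class A receptor, fell from a mean count of 521 to 186 and was 3.02-fold lower (2.74 to 3.33). These receptors differed from each other by 0.18 on the log2 scale, with an interval of 0.02 to 0.33.

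Ephb1, a class B receptor, averaged 233 reads per WT.GFP+ sample and 48.3 per ERα−/−.GFP+ sample. It was 5.21-fold lower (4.35 to 6.27), and 19.2% of its WT.GFP+ level was left. Its log2 ratio was −2.38 on the scale of the mean counts and −2.29 on that of the deposited mean log2 values. The difference between Ephb1 and each of the other 6 guidance genes lay outside counting error, from 0.54 on the log2 scale against Sema3c (0.27 to 0.81) to 1.10 against Plxna1 (0.82 to 1.38). None of the class B ephrins (Efnb1, Efnb2 and Efnb3), its usual ligands, was listed in either direction.

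Plxna1, a plexin that transmits class 3 semaphorin signals together with neuropilins, had mean counts of 975 and 432. It was 2.44-fold lower (2.28 to 2.60), the smallest change of the guidance genes. Neither neuropilin gene, Nrp1 or Nrp2, was listed.

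Among the ligands, Sema3c, a secreted class 3 semaphorin, had the highest mean count of all guidance genes, which went from 4111 in WT.GFP+ down to 1235 in ERα−/−.GFP+ MECs. It was 3.59-fold lower (3.46 to 3.72). Efna5, which encodes ephrin-A5, fell from 567 to 186 reads and was 3.28-fold lower (2.98 to 3.62). Efna2, which encodes ephrin-A2, rested on few reads, with mean counts of 57 and 20. Its fold change of 3.07 had an interval of 2.28 to 4.20. Its difference from every other guidance gene except Ephb1 lay within counting error. Over the 21 pairs of guidance genes, the intervals of the difference excluded 0 in 14. These intervals hold counting error alone, without the spread between samples and without allowance for the number of pairs.

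The receptors had a median log2 ratio of −1.51 (4 genes, from −2.38 to −1.28), and the ligands one of −1.71 (3 genes, from −1.84 to −1.62). The receptors thus spanned the ligands on either side. When the reads of each class were summed, receptors were 2.73-fold lower (2.64 to 2.82) and ligands 3.54-fold lower (3.42 to 3.67), but Epha2 supplied most of the receptor reads and Sema3c most of the ligand reads. With the Eph receptors and ephrins alone, the medians were −1.60 and −1.67. Genes are not replicates, and the difference between the classes was not tested.

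Levels of different genes were compared as RPKM, read counts scaled by depth and by kilobases of merged exon. In WT.GFP+ MECs the order from the highest was Sema3c at 21.2, Epha2 at 17.0, Efna5 at 5.17, Epha1 at 4.88, Plxna1 at 3.96, Ephb1 at 1.23 and Efna2 at 0.984. Efna5 and Epha1 did not differ beyond counting error, and their order turned when the longest transcript was used as the length. In ERα−/−.GFP+ MECs the order was Epha2 at 6.37 RPKM, Sema3c at 5.90, Plxna1 at 1.63, Epha1 at 1.61, Efna5 at 1.58, Efna2 at 0.320 and Ephb1 at 0.235. The values of Plxna1, Epha1 and Efna5 lay within counting error of each other there, as did those of Efna2 and Ephb1. By the longest transcript the order without ERα turned in 3 places, with Sema3c (7.67) above Epha2 (7.60), Epha1 (1.94) above Plxna1 (1.63) and Ephb1 (0.353) above Efna2 (0.320). The level of Sema3c was 5.35 times that of Plxna1 in WT.GFP+ MECs and 3.63 times without ERα. Efna2 and Efna5 together stood at 0.281 of Epha1 and Epha2 together in WT.GFP+ MECs and at 0.238 without ERα. The other class A ephrins and EphA receptors were not listed, so this is not the ratio of the whole classes. The ratio of Epha2 to Ephb1 went from 13.9 to 27.0.

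**Figure D2:**
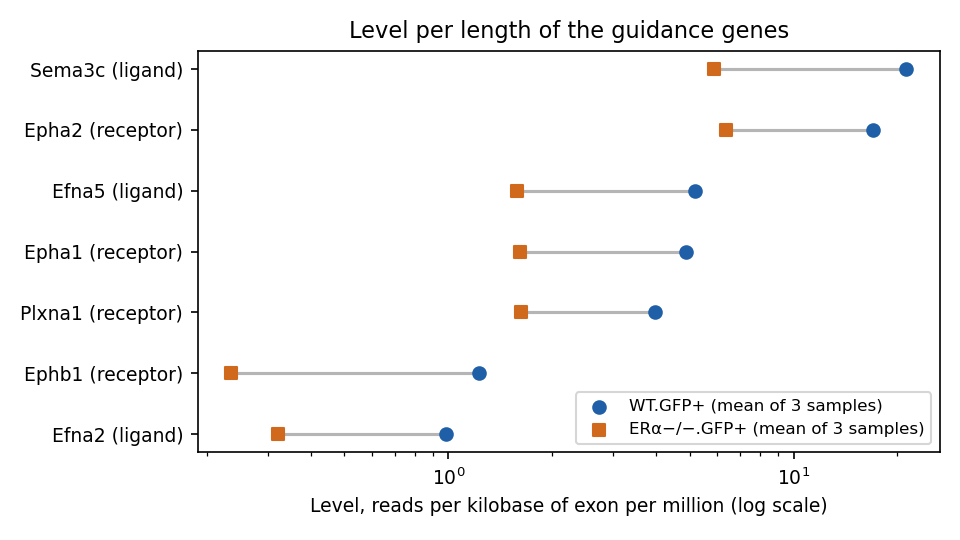
Mean level of each guidance gene in RPKM (horizontal axis, log scale) in WT.GFP+ (blue circles) and ERα−/−.GFP+ MECs (orange squares), with no error bars because single samples were not used. Every orange square lies left of its blue circle, and Sema3c and Epha2 lie above the other genes in both genotypes.

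The tables allow an indirect view of the spread between samples, since the log2 of a mean exceeds the mean of log2 values by more when samples differ more. Relative to the median of the listed genes whose mean count reached 1000, this excess was between −0.005 and 0.09 for the guidance genes in WT.GFP+ MECs and between −0.03 and 0.09 in ERα−/−.GFP+ MECs. Sema3c had the highest excess in both genotypes, and Ephb1 came next in WT.GFP+ MECs at 0.06. From the 5th to the 95th percentile of the 557 well-counted genes, the excess ran from −0.02 to 0.11 in WT.GFP+ and from −0.06 to 0.14 in ERα−/−.GFP+ MECs, and every guidance gene lay within this range. The mean counts are not scaled by sample, so unequal library sizes also enter the excess. A value within the range therefore does not show that the samples of a genotype were alike.

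Basal markers moved with the guidance genes. Of 16 genes of the basal (myoepithelial) layer, 14 were listed, all lower, between 3.37-fold for Krt14 and 4.16-fold for Myh11. Their summed level fell from 7581 to 2007 CPM, and Acta2, the smooth muscle actin, gave 2662 and 696 of these. The other basal markers, Itga6 and Itgb4, were in neither table. Of 15 luminal markers, Pgr alone was listed (3.84-fold lower), and keratins of the luminal layer such as Krt8 and Krt18 were in neither table. Of 15 T and NK cell markers, 8 were listed, all higher, between 2.04-fold for Nkg7 and 2.46-fold for Gzmb, and their summed level rose from 2731 to 6109 CPM. None of 5 myeloid, 7 endothelial, 6 fibroblast and 4 Schwann cell markers was listed, which bears only on changes past the thresholds and not on their levels. In bulk RNA, fewer cells of a type and less RNA per cell cannot be told apart, and the part of cell composition in the change of the guidance genes was not tested.

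The guidance genes did not all lie in the range of the listed basal markers. That range leaves out Itga6 and Itgb4, which were in neither table. It comes from a chosen list and is not the range of the whole basal layer. Efna5, Efna2, Epha1, Epha2 and Plxna1 were less lowered than every listed basal marker, as were 51.6% of the 566 lower genes and 60.8% of those with a mean count of at least 10 in both genotypes. Set against Krt14, the least lowered of the listed basal markers, with the counting error of both genes, the difference on the log2 scale was 0.16 for Epha1 (0.02 to 0.30), 0.33 for Epha2 (0.26 to 0.41) and 0.47 for Plxna1 (0.37 to 0.57). For Efna5 (−0.10 to 0.18) and Efna2 (−0.29 to 0.56) the interval included 0. Sema3c lay inside the range. Ephb1 was more lowered than every listed basal marker, as were 25.3% of the lower genes and 13.2% of those with the same minimum count. It differed from Myh11, the most lowered of the listed basal markers by mean counts, by −0.32 on the log2 scale (−0.58 to −0.07). On the deposited mean log2 values, 5 genes were again less lowered and 1 more lowered than every listed basal marker. The gap of Ephb1 was smaller there, at −2.29 against −2.09 for Cnn1, the most lowered listed marker on that scale.

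**Figure D3:**
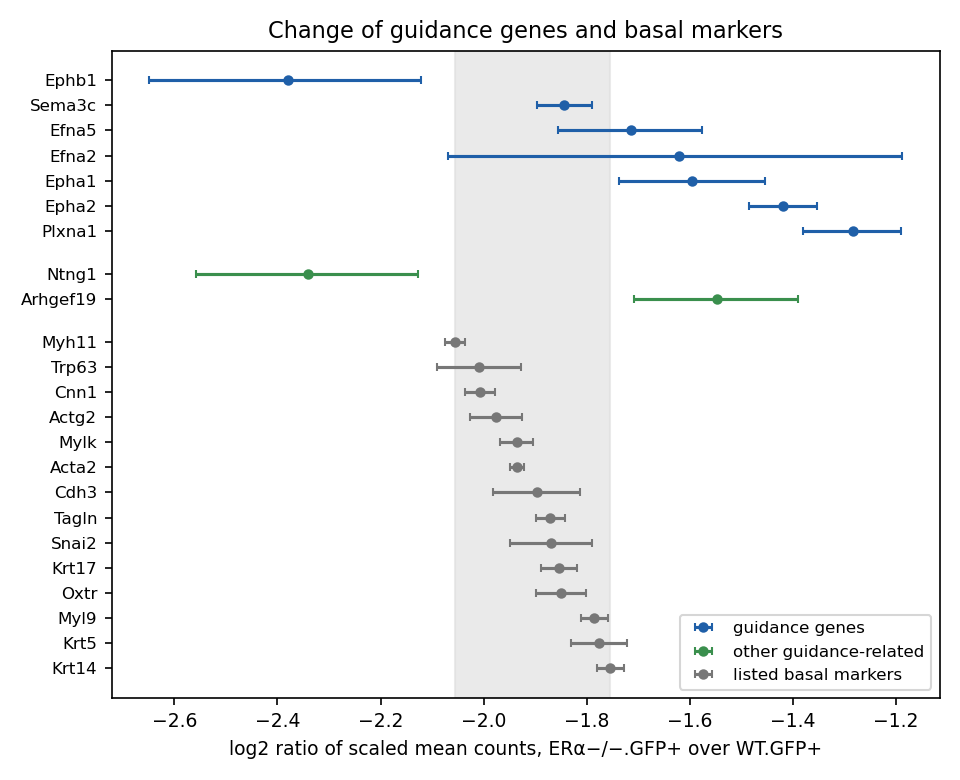
The log2 ratio of ERα−/−.GFP+ over WT.GFP+ (horizontal axis) for the guidance genes (blue), for Ntng1 and Arhgef19 (green) and for the 14 listed basal markers (grey), with bars for the 95% counting interval and a grey band from −2.06 to −1.75 for the range of the basal markers' ratios, without their errors. Ephb1 and Ntng1 lie left of the band, Sema3c lies in it, and Epha1, Epha2 and Plxna1 lie right of it with their bars.

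The 7 genes were the only ones listed of 51 Eph, ephrin, semaphorin and plexin genes searched for, made up of 14 Eph receptors, 8 ephrins, 20 semaphorins and 9 plexins. The other 44 were in neither table, so that changes below the thresholds in them would not be seen. The tables hold called genes alone, and how many genes were tested is not given in the sources used here, so the share of listed genes in these families has no background to be read against. Of 24 netrin, DCC, UNC5, Slit, Robo, neuropilin and related genes, Ntng1 alone was listed. Ntng1 encodes netrin-G1, a membrane-anchored relative of the netrins, and fell from a mean count of 340 to 72.3, which was 5.06-fold lower (4.37 to 5.89). Its interval overlapped that of Ephb1.

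Of 47 effectors and proteases chosen for these pathways, 2 were listed, in opposite directions. The choice need not hold every effector, so the count and its directions depend on it. Of all listed genes, 86.9% were lower. Arhgef19, a guanine nucleotide exchange factor of the ephexin family, had mean counts of 402 and 148 and was 2.92-fold lower (2.62 to 3.27). Crmp1, a collapsin response mediator protein that acts downstream of semaphorins in neurons, was higher, with a mean count of 1713 against 739 in WT.GFP+ MECs, or 2.15-fold. It was thus higher alongside the T and NK cell markers, and whether the same cells carry its reads was not tested.

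On GRCm38, the assembly the reads were aligned to as mm10, the guidance genes lie on 6 chromosomes and are all protein coding in GENCODE M21. Epha1 lies at chr6:42358487-42373268 and Plxna1 at chr6:89316314-89362620, both on the minus strand. Epha2 lies at chr4:141301240-141329384 on the plus strand. Ephb1, the longest of these genes at 433 kb, lies at chr9:101922128-102354693 on the minus strand. Efna2 lies at chr10:80179482-80190010 on the plus strand, Efna5 at chr17:62604184-62881317 on the minus strand, and Sema3c at chr5:17574281-17730268 on the plus strand. Reads assigned to paralogs were checked by windows of 85 bases, the read length. No window of Epha2, Efna2, Efna5 or Sema3c occurred in a transcript of another gene. Epha1 shared 2.02% of its windows with other genes, among them Zyx on the opposite strand. Ephb1 shared 1.05% with Gm26846, and Plxna1 shared 4.35% with the antisense gene Gm26811. The library kits do not mark strand, so reads in these stretches cannot be given to one gene. None of these overlapping genes was listed.

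Promoter sequence is shown for 3 guidance genes, since ERα is a receptor that binds DNA at a known element. The windows are RefSeq promoters of GRCm38.p6, from 250 bases before to 50 bases after the start, written 5′ to 3′ on the strand of the gene. Capitals mark the half-site of the oestrogen response element, GGTCA or its reverse complement TGACC. Epha2 and Efna5 each hold a half-site and Ephb1, the most lowered gene, holds none. Epha2 is at chr4:141300971-141301270, plus strand. Efna5 is at chr17:62881268-62881567, minus strand. Ephb1 is at chr9:102354644-102354943, minus strand.
Epha2: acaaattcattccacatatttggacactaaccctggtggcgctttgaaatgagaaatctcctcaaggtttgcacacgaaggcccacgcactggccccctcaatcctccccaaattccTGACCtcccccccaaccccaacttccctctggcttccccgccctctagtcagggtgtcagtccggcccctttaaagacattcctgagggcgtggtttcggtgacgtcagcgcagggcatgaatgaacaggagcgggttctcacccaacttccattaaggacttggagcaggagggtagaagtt
Efna5: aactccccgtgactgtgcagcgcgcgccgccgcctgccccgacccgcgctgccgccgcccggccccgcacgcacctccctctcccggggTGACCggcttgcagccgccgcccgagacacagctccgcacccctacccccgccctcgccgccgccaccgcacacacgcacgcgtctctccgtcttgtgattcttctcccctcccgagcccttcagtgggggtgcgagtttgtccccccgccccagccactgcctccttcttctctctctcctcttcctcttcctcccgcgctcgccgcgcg
Ephb1: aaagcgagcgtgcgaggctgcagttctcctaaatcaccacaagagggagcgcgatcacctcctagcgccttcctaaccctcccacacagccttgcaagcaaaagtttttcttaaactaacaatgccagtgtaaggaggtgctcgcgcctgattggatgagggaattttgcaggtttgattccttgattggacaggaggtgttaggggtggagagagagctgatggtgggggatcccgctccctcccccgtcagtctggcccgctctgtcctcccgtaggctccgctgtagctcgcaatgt

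The half-site lies 133 bases before the start in Epha2 and 161 bases before it in Efna5. Of the 6 guidance genes with a promoter in the reference table, these 2 held a half-site, against 40.5% of 32544 promoters of the same length and 38.9% of the 529 promoters of lower genes. The full element, GGTCA and TGACC with 3 bases of any kind between them, was found in none of the 6 and in 0.0707% of all promoters. The E-box CAGGTG was found in Epha1 alone, 71 bases before the start, against 20.3% of all promoters, and the AP-1 motif TGANTCA in none of the 6, against 7.79%. The GC box GGGCGG was found in 5 of the 6, all but Ephb1, against 35.9% of all promoters and 57.3% of those of lower genes. Both strands were searched, and the full element contains the half-site on each. A match shows that the letters are there, not that a factor binds. Sequence outside the windows was not searched, so a gene without a match may still hold the motif elsewhere. The promoters of Sema3c, Efna2 and Efna5 were rich in G and C, at 75.7%, 74.7% and 73.3%, where the median promoter had 53%, and that of Ephb1 had 55.7%.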

How the data were processed

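RNA of sorted GFP+ cells was sequenced for 3 WT.GFP+ and 3 ERα−/−.GFP+ samples, numbered 2, 3 and 5 and 2, 4 and 6. The authors trimmed reads with bcl2fastq and CLC, aligned them to mm10 with HTSstation, filtered for the top expressed genes in ASAP and compared genotypes with edgeR. The counter, its annotation and its strand setting are not given in the sources used here. They deposited lists of called genes with, for each genotype, a mean count and a mean normalized value, read here as log2 CPM. The tables also hold fold changes, p-values and FDRs of the authors' comparison, which were not used.

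Computation used scipy 1.17.1, pandas 2.3.3, numpy 2.4.6 and matplotlib 3.10.9 under Python 3.11.15. Depth was taken as the median of mean count over mean CPM for genes whose mean count reached 1000 (220 genes in WT.GFP+, 140 in ERα−/−.GFP+). Each mean count times 3 was whole within 0.01, so reads could be summed. Fold changes are ratios of depth-scaled mean counts, with exact conditional binomial intervals, and those between genes come from exact conditional odds ratios (large-sample ones against basal markers). Amplified reads carry no molecular identifiers. Lengths and positions came from GENCODE M21, matched for 650 genes. The members, lists and motifs were chosen with earlier results of these data known. Named genes were the members and every listed gene of the wider lists, with markers given as counts and examples.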

Additional observations from a re-analysis of the deposited data

How the results depend on the processing

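Every guidance gene stayed lower under each scale tried, which were the deposited mean log2 values, no scaling for depth, a depth from genes whose mean count reached 100, and a prior of 1 read. The genes were listed for passing a fold threshold, so their direction could hardly turn. These scales bear on the size of the changes. Without scaling, 3 log2 ratios left their counting intervals, at −1.31 for Epha2, −1.17 for Plxna1 and −1.73 for Sema3c. A fold of 4 in place of 3 left 1 gene, Ephb1. The median log2 ratio of ligands minus that of receptors was −0.21. It was −0.377 with summed reads and −0.0722 with Eph receptors and ephrins alone. With genes of at least 10 reads in both genotypes as the background, 48.3% were lower by more than 3-fold and 13.8% by more than 4-fold, and Ephb1 moved from position 88 to 18. By the longest transcript, 1 of the 7 genes kept its place in the order of levels in ERα−/−.GFP+ MECs. The 4-fold share, the positions and the ERα−/−.GFP+ order under these alternatives, and the comparison with the basal range on the deposited log2 values, were added after the data were seen. Leaving out replicates and a paired fit were not run, because both need values per sample. The genotypes share 1 replicate number, but the sample titles do not say which samples came from the same hosts. Efna2, with 20 reads on average in ERα−/−.GFP+ MECs, is limited most by depth.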

Other observations

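Listed genes within 1 Mb of a guidance gene were looked up after the values were seen. Arhgef19, at 2.92-fold lower, lies 43.7 kb from Epha2, at 2.67-fold lower, on chromosome 4, and Fblim1 lies 247 kb and Tmem51os1 755 kb from it. Sema3c had Gnai1 within 535 kb, and Epha1 had Trpv6 within 722 kb and Trbc1 within 819 kb. Ephb1, Efna2, Efna5 and Plxna1 had no listed gene within that distance. Trbc1 was higher in ERα−/−.GFP+ MECs, with a log2 ratio of 1.05, and the other neighbours named were lower. The share of all listed genes with such a neighbour was not computed, so these cases have no background to be read against.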
